A study of Homo sapiens with 14 samples.

Results

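Ribosome biogenesis factors are the proteins that transcribe, modify, cleave and fold ribosomal RNA and assemble it with ribosomal proteins. The set described here held 53 genes chosen by name from general knowledge of the pathway, with earlier results of these data known. The count files held 59471 gene names, and all 53 members had reads in every library. They were followed in SCC23 cells, an established head and neck squamous cell carcinoma (HNSCC) line, by RNA-seq of polyadenylated RNA in 14 libraries from 2 experiments. KMT2D-WT cells had an unedited KMT2D gene, and the editing protocol names a LacZ guide as control. KMT2D-KO cells carried CRISPR-Cas9 edits of KMT2D, a histone H3 lysine methyltransferase of enhancers, and came as 2 lines named KO1 and KO2. Cells were kept in high glucose (+Glc) or deprived of glucose for 6 h (−Glc), with 3 libraries of KMT2D-WT and 4 of KMT2D-KO in each condition. The comparisons asked whether loss of KMT2D altered the transcripts of these factors, and whether glucose mattered for that difference.

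In the nucleolus, RNA polymerase I transcribes a long ribosomal RNA precursor, with UBTF, RRN3 and a promoter factor that includes TAF1D bringing the polymerase to its genes. Small nucleolar RNPs (snoRNPs) then modify the precursor, the box C/D class by ribose methylation and the box H/ACA class by pseudouridylation, while a large processome starts the small subunit and a separate series of assembly factors and helicases builds the large subunit. Growing cells, tumor cells among them, devote much of their transcription to this pathway, and many of its genes are known targets of MYC.

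Library totals lay between 15669154 and 62968057 counts, of which the members took between 0.926% and 1.21%. In the 4 libraries of experiment 2 with glucose, both mates of each read pair had been counted. The squamous markers KRT14, TP63 and EPCAM were present in every library (lowest levels 26.5, 71.0 and 231 CPM, read counts scaled to library size), while KRT5 fell as low as 1.50 CPM and KRT6A reached no more than 1.13 CPM. The summed level of 8 markers of leukocytes, endothelium, fibroblasts and melanocytes was 4.50 to 9.53 CPM in KMT2D-WT and 8.66 to 23.2 CPM in KMT2D-KO libraries. PTPRC, PECAM1 and CD3E were at or near 0. Several markers differed between genotypes in edgeR's test. With glucose, KMT2D-KO was lower in KRT14 (log2 fold change -1.74) and DSP (-0.51) and higher in the collagens COL1A1 (1.26) and COL3A1 (at most 5.26 CPM in any library, with a median of 0), 2 of 7 squamous and 2 of 4 other markers tested. Without glucose, KMT2D-KO was higher in KRT5 (2.86), KRT17 (2.16), CDH1 (1.53), TP63 (0.70), EPCAM (0.31) and COL1A1 (1.33), 5 of 8 squamous and 1 of 2 other markers tested. The part of these markers in the results was not tested. Within experiment 2 without glucose, the 2 KMT2D-WT libraries and the 2 KMT2D-KO libraries formed close pairs, with a chi-square of 1.71 and 1.78 per gene against 25.9 to 83.0 in other pairs. In 27 genes that separated KO1 from KO2 with glucose, both KMT2D-KO libraries of that pair lay near KO2 (mean log2 distances 0.46 and 0.52) and far from KO1 (3.20 and 3.22). The library labelled KO1 there therefore went against its line label. For results without glucose, the adjusted p with these pairs summed is given below by role, and lines were not followed in experiment 2 without glucose.

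KMT2D transcript itself was 266 to 279 CPM in the 3 KMT2D-WT libraries with glucose. It was 182 and 184 CPM in KO1 and 323 and 373 CPM in KO2. Without glucose it was 231 to 239 CPM in KMT2D-WT and 19.9, 190, 152 and 145 CPM in KMT2D-KO, the lowest being the library labelled KO1 of experiment 1. Small edits can leave a transcript in place, so this level does not check the knockout. The library at 19.9 CPM stood apart from the others.

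With glucose, the ribosome biogenesis factors were mostly higher in KMT2D-KO than in KMT2D-WT cells. Of the 53 members, 24 were higher and 2 were lower at a Benjamini-Hochberg adjusted p under 0.05 in edgeR's quasi-likelihood test with experiment as covariate. Among all 20423 genes tested, 13% were higher and 11.7% lower. The median log2 fold change (KMT2D-KO over KMT2D-WT) was 0.27 over the members and 0.02 over all genes tested, and 47 members were above 0. Summed over the 53 genes, the level was 8790, 8625 and 9117 CPM in KMT2D-WT and 11164, 11791, 10167 and 11168 CPM in KMT2D-KO, so that the groups did not overlap. CPM is a share of each library's RNA, and more transcript per cell cannot be told apart from less of other RNA per cell.

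**Figure D1:**
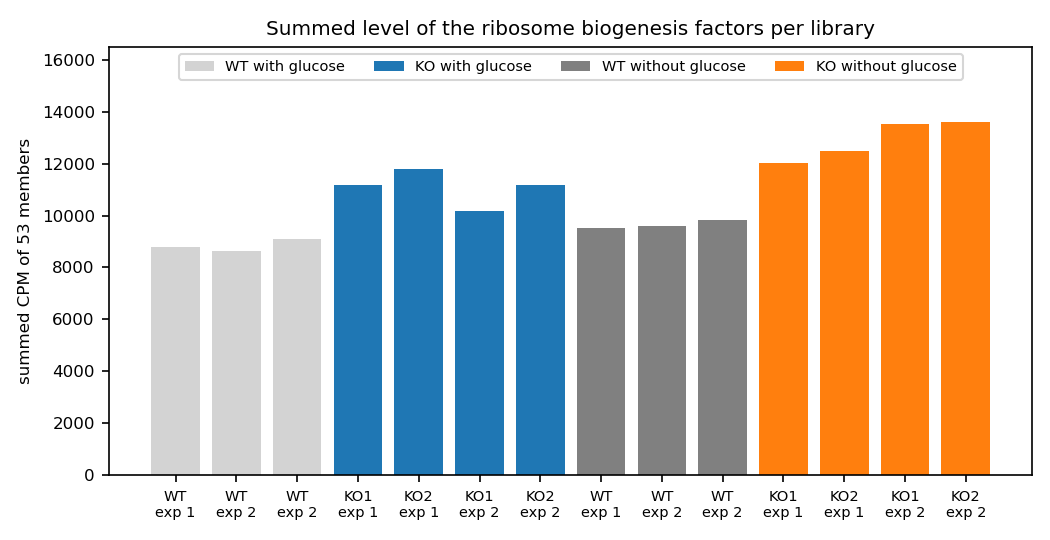
Summed level of the 53 ribosome biogenesis factors in each of the 14 libraries, in CPM (vertical axis, from 0), with bars colored by genotype and glucose condition and labelled by line and experiment. With glucose the KMT2D-WT bars end between 8625 and 9117 and the KMT2D-KO bars between 10167 and 11791, and without glucose between 9509 and 9826 and between 12046 and 13598.

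The snoRNP proteins moved as whole groups with glucose. All 3 box C/D proteins and all 4 box H/ACA proteins were higher in KMT2D-KO, with median log2 fold changes of 0.42 and 0.74. NOP56, a core protein of box C/D particles, was 355, 232 and 236 CPM in KMT2D-WT and 580, 732, 367 and 439 CPM in KMT2D-KO. Each KMT2D-KO library exceeded every KMT2D-WT library, and the log2 fold change was 0.83 ± 0.11 (SE; adjusted p = 0.000919). FBL, the methyltransferase of the same particle, was 176 CPM in KMT2D-WT and 213 and 254 CPM in KMT2D-KO of experiment 1, and 84.9 and 85.1 against 103 and 123 CPM in experiment 2. The groups overlapped across experiments but not within either of them (log2 fold change 0.42 ± 0.10, adjusted p = 0.0137). DKC1, the pseudouridine synthase, was 285, 240 and 235 CPM in KMT2D-WT and 600, 461, 437 and 369 CPM in KMT2D-KO, without overlap (0.82 ± 0.11, adjusted p = 0.00103). Its partner NHP2 was 73.6, 46.0 and 53.3 CPM in KMT2D-WT and 126, 133, 78.7 and 86.1 CPM in KMT2D-KO. These groups did not overlap either, and the log2 fold change was 0.77 ± 0.09 (adjusted p = 0.000477). Among NHP2's exonic bases, 28.9% are shared with the neighboring gene RMND5B, so part of its reads could not have been assigned. The remaining proteins were GAR1 at 0.71 and NOP10 at 0.36 among box H/ACA, and NOP58 at 0.35 among box C/D.

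Among the 17 large subunit assembly factors, 9 were higher and 1 was lower with glucose, with a median log2 fold change of 0.31. NOP16 (chr5:176383938-176388927 in GRCh38, minus strand), a nucleolar protein of the large subunit precursor, had the largest change of any member. It was 98.1, 42.3 and 39.5 CPM in KMT2D-WT and 239, 298, 96.4 and 121 CPM in KMT2D-KO. Its groups overlapped only across experiments, since the KMT2D-KO libraries of experiment 2 lay near the KMT2D-WT library of experiment 1. The fitted change was 2.70-fold (log2 1.43 ± 0.12, adjusted p = 9.61e-05). BOP1, PES1 and WDR12 form a complex needed for large subunit rRNA processing, and its members did not move together. BOP1 was 212, 142 and 129 CPM in KMT2D-WT and 307, 331, 218 and 239 CPM in KMT2D-KO, without overlap (log2 fold change 0.69 ± 0.08, adjusted p = 0.000556). PES1 (chr22:30576625-30607083, minus strand) went the other way, from 291, 192 and 189 CPM in KMT2D-WT to 188, 187, 124 and 126 CPM in KMT2D-KO. All 4 KMT2D-KO values lay under every KMT2D-WT value, the change was 0.655-fold (log2 -0.61 ± 0.07), and the adjusted p was 0.000389. WDR12, at 47.7 to 57.0 CPM in KMT2D-WT and 59.5 to 66.2 CPM in KMT2D-KO, did not pass the test (0.24 ± 0.10, adjusted p = 0.105). The other large subunit factors that rose were MRTO4, NIP7, GNL3, WDR74, RRS1, NOC2L and GNL2, with log2 fold changes from 0.60 for MRTO4 down to 0.29 for GNL2.

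Small subunit factors were called less evenly. In the 12 genes of the processome, which cleaves the precursor around the small subunit RNA, 2 were higher and 1 was lower with glucose. RRP9, which binds the guide snoRNA of the processome, was 69.6, 35.2 and 36.1 CPM in KMT2D-WT and 96.1, 92.9, 48.8 and 51.7 CPM in KMT2D-KO. Within each experiment it was higher in both KMT2D-KO libraries (log2 fold change 0.48 ± 0.08, adjusted p = 0.00228). The RNA acetyltransferase NAT10 also rose (0.28 ± 0.08, adjusted p = 0.0323). UTP15, a processome protein that also promotes ribosomal RNA transcription, was 37.4, 54.9 and 51.9 CPM in KMT2D-WT and 30.4, 29.4, 39.4 and 41.4 CPM in KMT2D-KO. It was lower in KMT2D-KO in both experiments (log2 fold change -0.37 ± 0.08, adjusted p = 0.0130). Of the 6 factors of late small subunit maturation, 3 were higher: PNO1 at 0.64 ± 0.11, BYSL at 0.41 ± 0.08 and NOB1 at 0.40 ± 0.11. NOB1 is the endonuclease of the last cut of the small subunit RNA, and PNO1 is its partner.

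Of the 6 nucleolar chaperones and regulators, NPM1, LYAR and DDX21 rose with glucose. NPM1, an abundant nucleolar chaperone, was 632 CPM in KMT2D-WT and 1000 and 1090 CPM in KMT2D-KO of experiment 1. In experiment 2 it was 1300 and 1490 CPM against 1750 and 2020 CPM. It was higher in KMT2D-KO within both experiments (log2 fold change 0.56 ± 0.11, adjusted p = 0.00533), while the experiments themselves stood further apart. The annotation holds 49 numbered NPM1 copies whose near-identical sequence could take part of its reads. LYAR changed by 0.43 ± 0.09 and the RNA helicase DDX21 by 0.39 ± 0.10. None of the 5 genes of RNA polymerase I transcription passed the test with glucose (4 of 5 above 0, median 0.09). The lowest adjusted p in edgeR was 0.0586, for RRN3. In edgeR 1 of the 5 was at an unadjusted p under 0.05, as were 7433 of the 20423 genes tested.

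**Figure D2:**
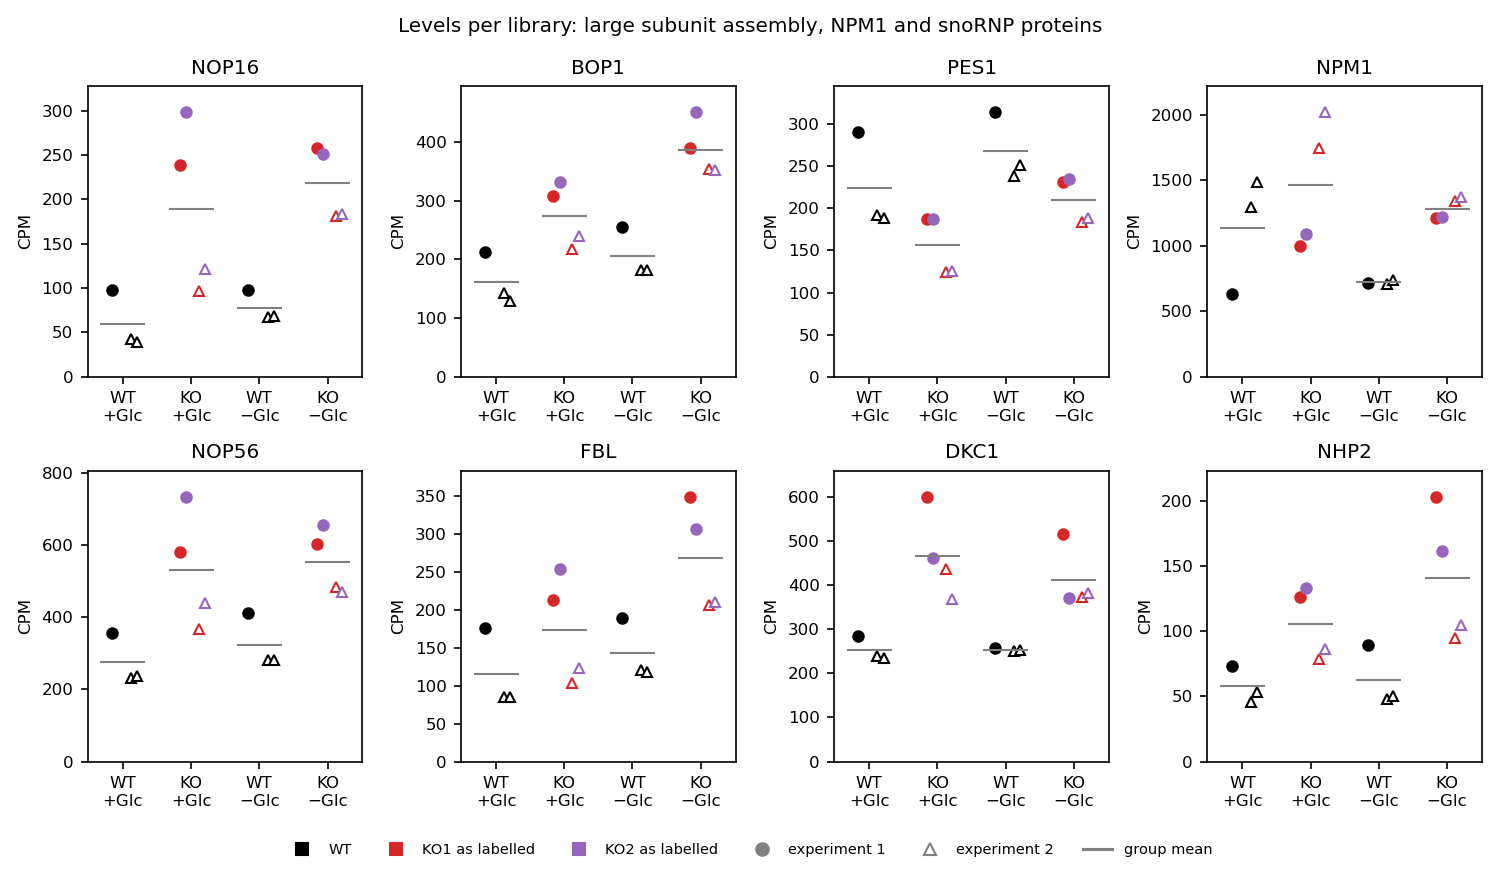
Level of 8 members in each library, in CPM (vertical axis of each panel, from 0), by genotype and glucose condition. Filled circles are experiment 1, open triangles experiment 2, colors the line as labelled, and grey lines group means. In each experiment the KMT2D-KO libraries lie above KMT2D-WT for NOP16, BOP1, NPM1, NOP56, FBL, DKC1 and NHP2 and below it for PES1, in both glucose conditions.

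All 26 members called with glucose had the same direction in each experiment fitted alone. They were called from these same experiments together, so this agreement is no separate support. Over all members, 43 were above 0 in both experiments and 4 were below 0 in both (81.1% and 7.55%), against 40.0% and 40.0% of 16642 genes. Leaving out each library in turn, 10 of the 26 calls held in all 7 fits, namely MRTO4, PNO1, RRP9, GAR1, NOP16, NHP2, DKC1, BOP1, NOP56 and PES1. Among the fits that left out a library, the number called fell most without the single KMT2D-WT library of experiment 1, where 9 were higher and 1 was lower, and next without WT replicate 2 (15 and 1). It fell further without experiment as covariate, to 2 higher and none lower, where 495 and 476 of 20423 genes were called. In that fit 13 members were at an unadjusted p under 0.05 in edgeR, a count not made over all genes. In DESeq2 without the covariate 8 members were higher. Experiment 1 alone gave 1 higher and experiment 2 alone 7 higher and 1 lower.

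The wider pathway was counted from a list of 116 other ribosome biogenesis genes, of which 111 were tested with glucose. This list too was chosen with earlier results of these data known. Of the 111 tested, 36 were higher and 6 lower in KMT2D-KO, where 13% and 11.7% of all genes tested were called. Their median log2 fold change was 0.16. By role, 15 of 40 further small subunit factors, 14 of 46 further large subunit factors, 4 of 15 exosome and exonuclease genes and 3 of 10 further RNA polymerase I genes were higher. MYC, a transcription factor of growth genes, was 113, 66.0 and 67.0 CPM in KMT2D-WT and 199, 191, 122 and 113 CPM in KMT2D-KO with glucose. Without glucose it was 181, 127 and 126 CPM in KMT2D-WT and 707, 839, 581 and 563 CPM in KMT2D-KO. MYC was higher in KMT2D-KO within each experiment and condition (log2 fold changes 0.82 ± 0.08 with and 2.12 ± 0.07 without glucose). Its part in the results was not tested.

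The promoters of the members were read for the E-box CACGTG, the 6 letters that MYC and related factors are known to bind. Because the motif is its own reverse complement, 1 search covered both strands. RefSeq promoter sequences (GRCh38.p14, 250 bases before to 50 after a transcription start) were matched for 46 of the 53 members, as 57 promoters. An E-box was present in 20 of these 57 promoters (35.1%), against 2548 of all 35116 promoters (7.26%) and 9.01% of the 16968 promoters of genes tested with glucose. Of the 22 E-boxes in members, 19 began within 50 bases of the start. Among members with a promoter, 12 of 21 that were higher with glucose had an E-box, as did 7 of 23 that were not called. Without glucose an E-box was present in 14 of 31 members called higher, 3 of 7 not called and 3 of 8 called lower. None of the 5 genes of RNA polymerase I transcription had an E-box in these windows. Members without one also rose, NOP16, NOP56, DKC1, NHP2 and NPM1 among them, and PES1, which fell, had one. A match of letters is a description of the sequence and not a measurement of binding. The 5 promoters below, each 5′ to 3′ on the strand of its gene with E-boxes in capitals, are shown because 3 belong to members that rose with an E-box near the start, 1 to PES1, and 1 to NOP16, which has none.
FBL, chr19:39846330-39846629, minus strand: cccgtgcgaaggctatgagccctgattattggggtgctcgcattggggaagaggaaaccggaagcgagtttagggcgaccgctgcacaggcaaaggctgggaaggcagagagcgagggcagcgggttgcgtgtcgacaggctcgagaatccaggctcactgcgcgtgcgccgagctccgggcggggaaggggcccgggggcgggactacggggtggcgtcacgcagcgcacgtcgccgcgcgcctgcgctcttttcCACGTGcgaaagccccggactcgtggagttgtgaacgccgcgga
MRTO4, chr1:19251555-19251854, plus strand: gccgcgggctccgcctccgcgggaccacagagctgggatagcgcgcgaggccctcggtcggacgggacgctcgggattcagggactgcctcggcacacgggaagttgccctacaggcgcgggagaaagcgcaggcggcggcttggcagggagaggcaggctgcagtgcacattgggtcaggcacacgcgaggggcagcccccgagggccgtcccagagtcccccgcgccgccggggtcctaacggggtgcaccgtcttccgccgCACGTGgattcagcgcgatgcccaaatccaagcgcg
RRP9, chr3:51941855-51942154, minus strand: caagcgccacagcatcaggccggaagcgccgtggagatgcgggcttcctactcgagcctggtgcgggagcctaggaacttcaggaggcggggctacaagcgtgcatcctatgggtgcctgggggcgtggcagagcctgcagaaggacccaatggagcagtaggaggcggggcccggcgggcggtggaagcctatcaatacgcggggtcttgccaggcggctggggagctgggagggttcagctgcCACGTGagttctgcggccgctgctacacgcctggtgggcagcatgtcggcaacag
PES1, chr22:30591861-30592160, minus strand: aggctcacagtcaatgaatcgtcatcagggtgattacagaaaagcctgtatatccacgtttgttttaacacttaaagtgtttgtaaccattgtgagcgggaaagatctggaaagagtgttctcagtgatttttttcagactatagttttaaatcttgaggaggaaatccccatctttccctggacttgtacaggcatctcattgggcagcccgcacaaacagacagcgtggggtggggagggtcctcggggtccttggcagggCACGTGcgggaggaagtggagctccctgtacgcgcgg
NOP16, chr5:176388549-176388848, minus strand: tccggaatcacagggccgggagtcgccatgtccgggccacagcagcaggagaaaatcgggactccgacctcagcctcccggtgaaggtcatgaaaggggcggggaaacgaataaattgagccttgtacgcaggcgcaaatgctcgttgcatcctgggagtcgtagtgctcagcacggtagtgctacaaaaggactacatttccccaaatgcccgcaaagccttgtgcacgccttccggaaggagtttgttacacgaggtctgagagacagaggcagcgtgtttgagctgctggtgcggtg
The E-box began 6 bases after the first transcribed base in FBL, 14 after it in MRTO4, 13 after it in PES1, and at position -5 in RRP9.

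Without glucose, the higher level of ribosome biogenesis factors in KMT2D-KO was present again. A smaller set that included 3 of the 5 RNA polymerase I genes was lower. Of the 53 members, 34 were higher and 8 were lower, where 25.9% and 24.9% of the 16782 genes tested were called. The 8 lower members are thus a smaller share than the lower genes among all tested. The median log2 fold change was 0.42 over the members and 0.00 over all genes. Summed levels were 9509, 9601 and 9826 CPM in KMT2D-WT and 12046, 12473, 13544 and 13598 CPM in KMT2D-KO, without overlap. With the close pairs of experiment 2 summed, 13 members were higher and 1 was lower, and these 14 were NOP16, NHP2, NOB1, NPM1, BOP1, FBL, BYSL, NOP56, RRP9, GNL2, MRTO4, NIP7, UTP4 and UTP15. With library-size scaling 23 were higher and 11 lower, where 2726 and 6295 of 16782 genes were called. This setting shifted the median of all genes to -0.25 and that of the members to 0.17.

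RNA polymerase I genes were called in both directions without glucose, 2 higher and 3 lower. All 5 were at an unadjusted p under 0.05 in the edgeR fit with every library, as were 9607 of 16782 genes. With the close pairs summed none of the 5 was called (lowest adjusted p 0.0556, for UBTF). UBTF (chr17:44205033-44221626, minus strand), which binds ribosomal DNA and keeps it active, was 155, 120 and 123 CPM in KMT2D-WT and 80.5, 106, 86.1 and 88.8 CPM in KMT2D-KO. All KMT2D-KO values lay under all KMT2D-WT values, the change was 0.660-fold (log2 -0.60 ± 0.09), and the adjusted p was 0.00187. POLR1B, a catalytic subunit of the polymerase, was 81.5, 103 and 99.6 CPM in KMT2D-WT and 69.8, 56.0, 67.2 and 68.7 CPM in KMT2D-KO, without overlap (-0.52 ± 0.12, adjusted p = 0.00953, and 0.143 with the pairs summed). With glucose POLR1B was already low in KO2, at 63.4 and 73.7 CPM, against 91.9 and 101 CPM in KO1 and 72.8, 91.6 and 90.0 CPM in KMT2D-WT. Both KMT2D-KO libraries of experiment 2 without glucose lay near KO2, and the part of line in the POLR1B decrease was not tested. POLR1A, the largest subunit, was 276, 253 and 245 CPM in KMT2D-WT and 147, 224, 215 and 208 CPM in KMT2D-KO. These groups did not overlap, but the call was weak (-0.39 ± 0.13, adjusted p = 0.0406, and 0.190 with the pairs summed) and held in only 2 of the 7 fits that left out a library. TAF1D (chr11:93729948-93784391, minus strand), a part of the promoter factor, was 191, 351 and 350 CPM in KMT2D-WT and 222, 325, 603 and 611 CPM in KMT2D-KO. It was higher in KMT2D-KO within each experiment (0.66 ± 0.12, adjusted p = 0.00339, and 0.0782 with the pairs summed). Its locus hosts several snoRNA genes, with which 16.5% of its exonic bases overlap together with other genes. RRN3, the initiation factor, rose by 0.19 ± 0.06 (adjusted p = 0.0355, and 0.304 with the pairs summed) and was at -0.06 with library-size scaling. Of 10 further RNA polymerase I genes tested in the fit with every library, 4 were higher and 2 lower (median 0.31). The higher ones were POLR1D (1.06), POLR1E (0.66), POLR1C (0.60) and POLR1H (0.39), and the lower ones TAF1C (-0.61) and TTF1 (-0.41). Genes of the polymerase and its factors thus went both ways.

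**Figure D3:**
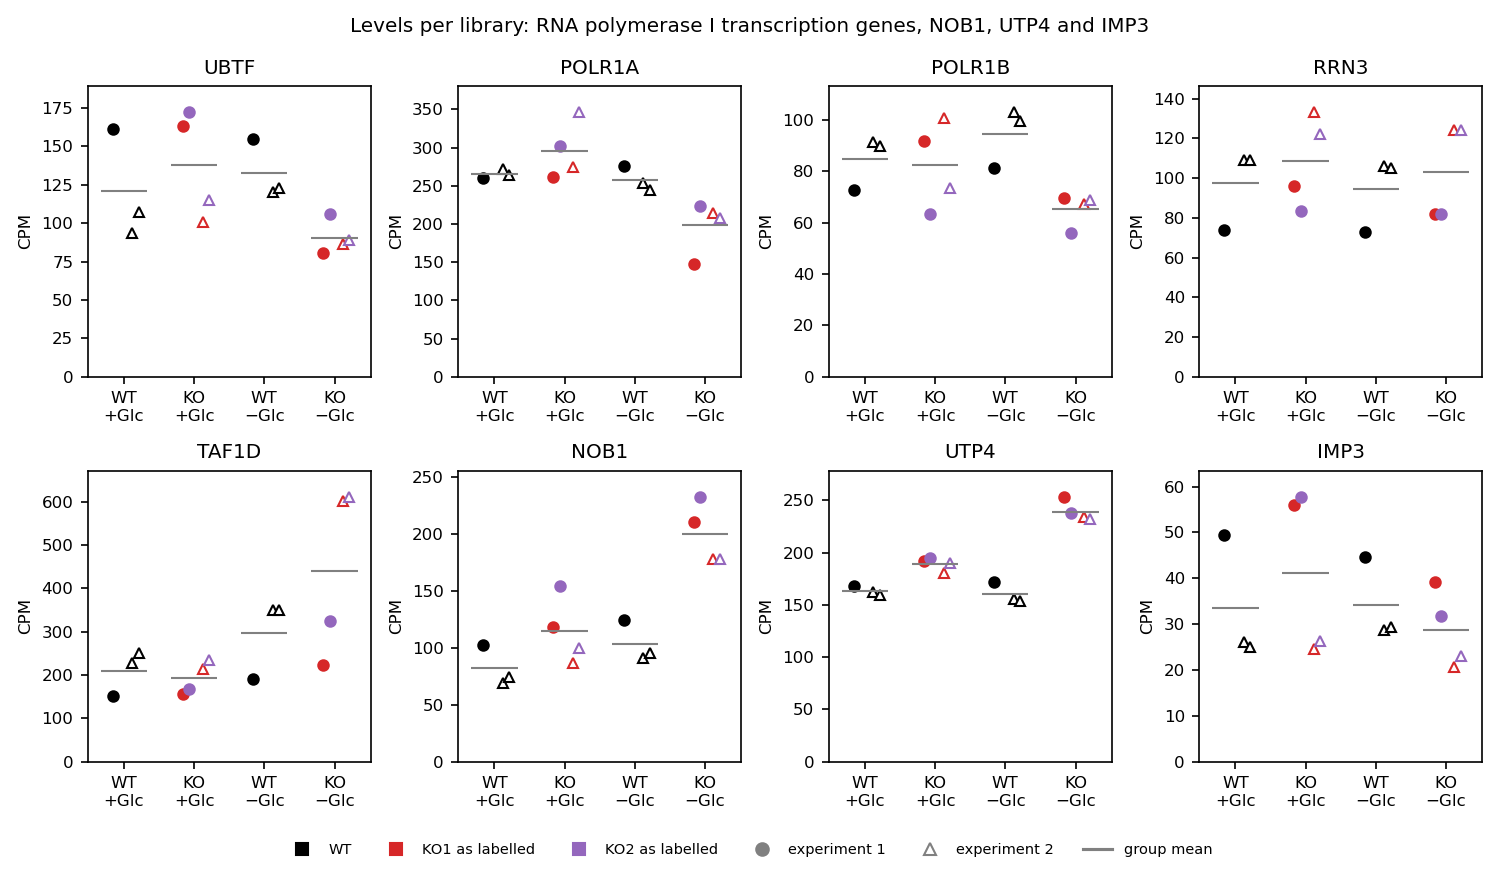
Level of the 5 RNA polymerase I transcription genes and of NOB1, UTP4 and IMP3 in each library, in CPM (vertical axis of each panel, from 0), with symbols for experiment and colors for line as labelled. Without glucose the 4 KMT2D-KO libraries lie below the 3 KMT2D-WT libraries for UBTF, POLR1A and POLR1B, while with glucose the genotypes overlap for these genes.

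The snoRNP proteins and chaperones were higher in KMT2D-KO without glucose in all members, 3 of 3, 4 of 4 and 6 of 6. With the close pairs summed, 2 of 3 box C/D proteins (NOP56 and FBL), 1 of 4 box H/ACA proteins (NHP2) and 1 of 6 chaperones and regulators (NPM1) were called. The adjusted p was then 0.0525 for NOP58, 0.0824 for DKC1, 0.0982 for NOP10, 0.190 for GAR1, 0.05 for NCL and 0.0666 for DDX21. FBL was 189, 120 and 118 CPM in KMT2D-WT and 348, 306, 206 and 210 CPM in KMT2D-KO, without overlap (log2 fold change 0.78 ± 0.08, adjusted p = 0.000381). NHP2 was 89.5, 48.3 and 50.2 CPM in KMT2D-WT and 203, 162, 94.5 and 105 CPM in KMT2D-KO. Every KMT2D-KO library was above every KMT2D-WT library, a change of 2.01-fold (1.00 ± 0.11, adjusted p = 0.000513). NPM1 was 719, 706 and 740 CPM in KMT2D-WT and 1210, 1220, 1340 and 1370 CPM in KMT2D-KO. The groups were far apart relative to their spread (0.83 ± 0.06, adjusted p = 8.75e-05). NOP56 changed by 0.69 ± 0.06, DKC1 by 0.65 ± 0.14 and DDX21 by 0.62 ± 0.10. NCL, the most abundant member by CPM, was not called with glucose (0.30 ± 0.12) and rose without it (0.42 ± 0.05, adjusted p = 0.000837).

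In small subunit maturation without glucose, 5 processome genes were higher and 3 lower, and 4 late factors were higher and 1 lower. With the close pairs summed, RRP9, UTP4, NOB1 and BYSL were higher and UTP15 was lower, while UTP20 (adjusted p = 0.120), IMP3 (0.208) and LTV1 (0.284) were not called. NOB1 was 124, 90.6 and 95.5 CPM in KMT2D-WT and 210, 232, 178 and 178 CPM in KMT2D-KO, without overlap (0.88 ± 0.06, adjusted p = 9.42e-05). BYSL, a late small subunit factor, changed by 0.74 ± 0.08 and RRP9 by 0.64 ± 0.08. UTP20, a very large scaffold protein of the processome, was 120, 166 and 164 CPM in KMT2D-WT and 38.0, 75.0, 116 and 117 CPM in KMT2D-KO. All KMT2D-KO values were lower, with a wide spread among themselves (-0.76 ± 0.21, adjusted p = 0.0213). UTP15 was 47.1, 71.2 and 71.0 CPM in KMT2D-WT and 28.0, 30.7, 48.9 and 49.6 CPM in KMT2D-KO, lower in both experiments (-0.61 ± 0.06, adjusted p = 0.000381). IMP3, which bridges the guide snoRNA and the precursor, fell by 0.40 on the log2 scale (± 0.11, adjusted p = 0.0237), with 59.0% of its exonic bases shared with other genes. LTV1, a late export factor, fell by 0.51 (± 0.17, adjusted p = 0.0425), with 34.7% shared. With glucose LTV1 was 23.1 and 18.1 CPM in KO2, 36.5 and 26.5 CPM in KO1 and 24.8 to 29.7 CPM in KMT2D-WT. Because both KMT2D-KO libraries of experiment 2 without glucose lay near KO2, line may enter this decrease, which was not tested.

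Large subunit assembly without glucose gave 10 higher members and 1 lower, and with the close pairs summed 5 were higher (NOP16, BOP1, GNL2, NIP7 and MRTO4) and PES1 was not called (adjusted p = 0.0702). NOP16 was 98.0, 67.3 and 68.6 CPM in KMT2D-WT and 258, 251, 181 and 183 CPM in KMT2D-KO. Here the groups did not overlap, and the change was 2.61-fold (1.39 ± 0.07, adjusted p = 3.96e-05). BOP1 was 255, 182 and 181 CPM in KMT2D-WT and 390, 450, 353 and 352 CPM in KMT2D-KO, without overlap (0.84 ± 0.07, adjusted p = 0.000138). PES1 was 314, 239 and 252 CPM in KMT2D-WT and 231, 235, 184 and 189 CPM in KMT2D-KO. All KMT2D-KO values were again below all KMT2D-WT values (-0.43 ± 0.06, adjusted p = 0.00128). WDR12 was not called (-0.13 ± 0.10, adjusted p = 0.314). In both conditions BOP1 was thus called higher, PES1 lower and WDR12 not called, and no test between them was run.

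**Figure D4:**
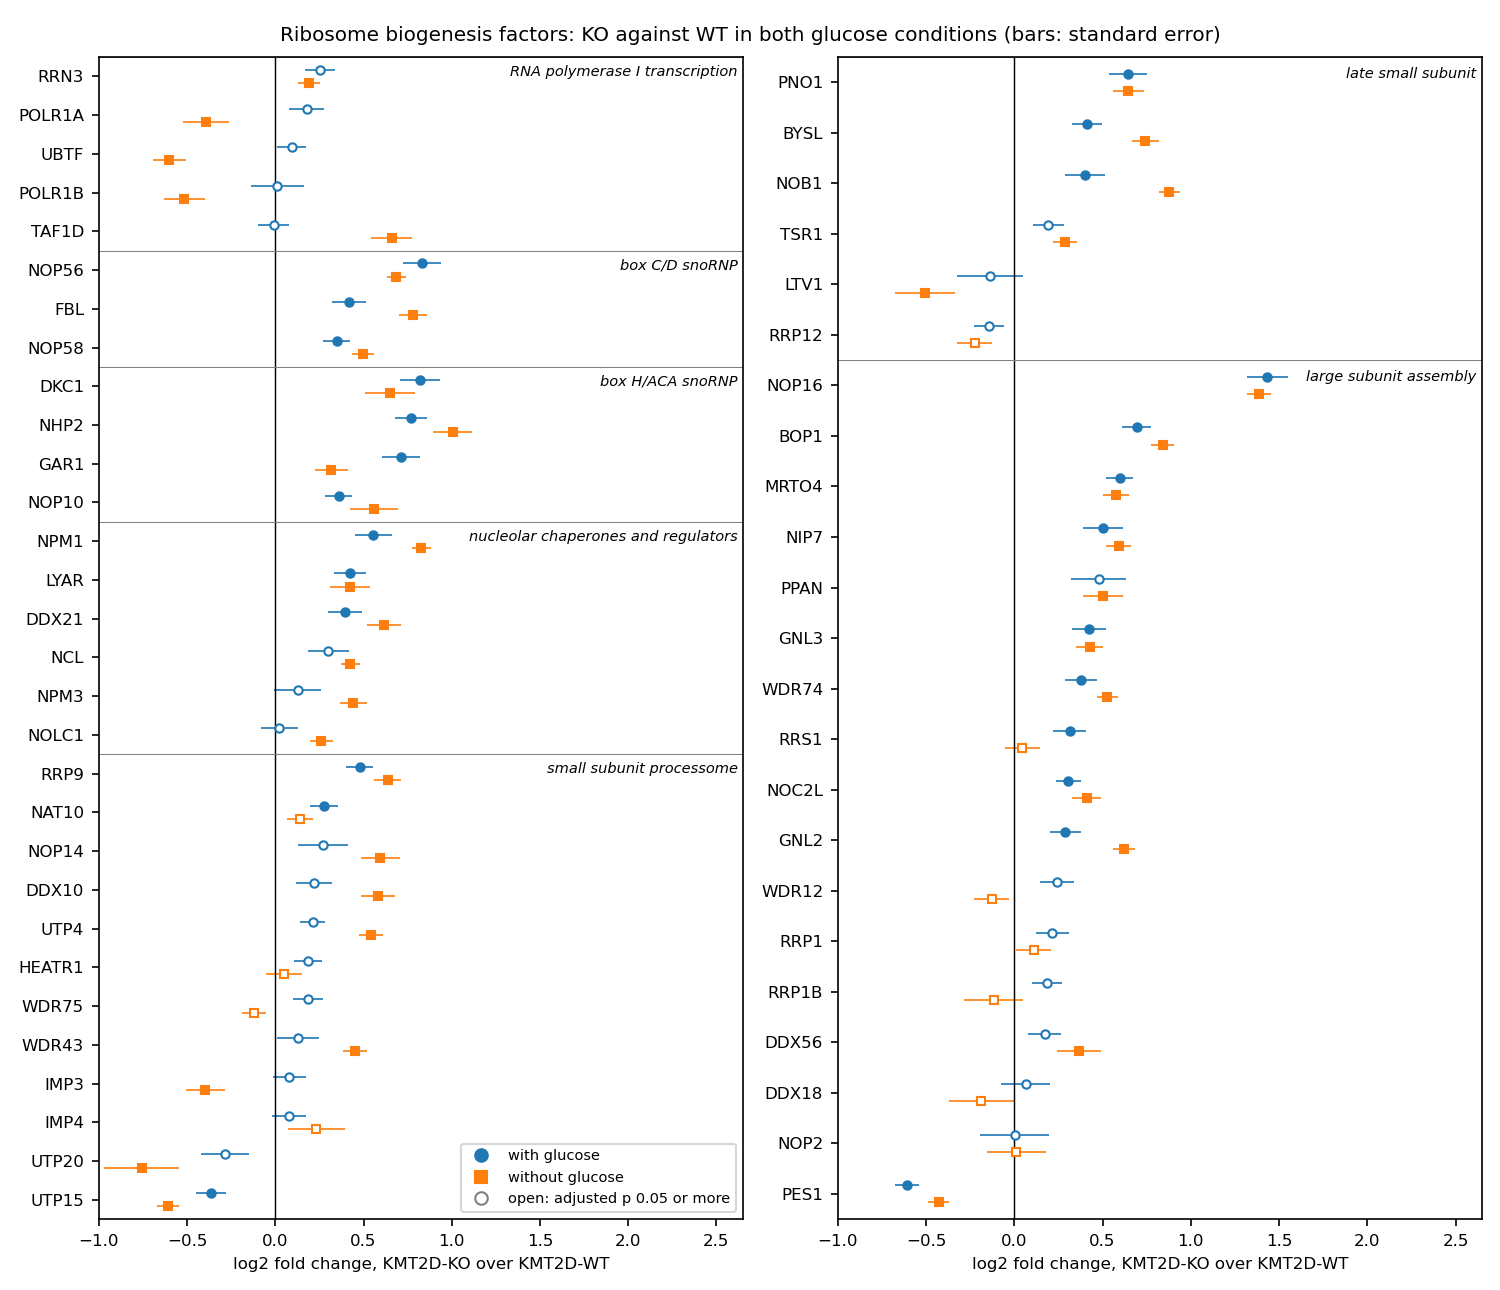
Log2 fold change of KMT2D-KO over KMT2D-WT (horizontal axis) for all 53 members, ordered by role, with glucose (blue circles) and without glucose (orange squares). Bars are standard errors, and open symbols did not pass the adjusted p of 0.05. Most filled symbols lie right of 0, 24 with and 34 without glucose, and PES1 and UTP15 lie left of 0 in both conditions.

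The 42 members called without glucose had the same direction in each experiment. They were called from these same experiments together, so this agreement is no separate support. Over all members, 38 were above 0 in both experiments and 12 were below 0 in both (71.7% and 22.6%), against 42.3% and 43.2% of 16110 genes. Over the 7 fits that each left out 1 library, 29 of the 42 calls held every time, among them UBTF, POLR1B, UTP15 and PES1 of the lower members. Such fits keep the other library of a close pair, and of these 4 only UTP15 was called with the pairs summed. Without the KMT2D-KO library that stood apart in KMT2D transcript, 38 were higher and 11 lower, where 6136 and 6312 of 16739 genes were called. Without KMT2D-KO replicate 2 the counts were 34 and 8. Without any of the 3 KMT2D-WT libraries, or of the KMT2D-KO libraries of experiment 2, 27 or 28 were higher and 4 or 5 lower. Both conditions called 22 members higher, which is 22 of the 24 with glucose and 22 of the 34 without it, and both called PES1 and UTP15 lower. The overlap of calls over all genes was not counted, so this does not set the members apart. NAT10 and RRS1 were higher with glucose and not called without it. No member was called in opposite directions. Of 110 other ribosome biogenesis genes, 53 were higher and 12 lower without glucose (median 0.24), where 25.9% and 24.9% of all genes tested were called.

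To ask whether glucose changed the KMT2D-KO effect, all 14 libraries entered 1 fit, which gave the log2 fold change without glucose minus that with glucose. In experiment 2 without glucose both KMT2D-KO libraries lay near KO2, while with glucose the libraries came from both lines. The mix of lines thus differed between conditions, and its part in this difference cannot be told apart from that of glucose. Of the 53 members, 3 had a more positive effect without glucose and 2 a more negative one, where 4.73% and 6.54% of 18678 genes were called. These counts are near the shares among all genes and do not set the members apart. TAF1D differed by 0.70 ± 0.17 (adjusted p = 0.0206), from -0.01 with to 0.66 without glucose. UBTF differed by -0.67 ± 0.15 (adjusted p = 0.0144), from 0.09 to -0.60. With glucose UBTF was 161, 93.7 and 107 CPM in KMT2D-WT and 163, 172, 101 and 115 CPM in KMT2D-KO, which overlapped. NOB1 differed by 0.50 ± 0.14 (adjusted p = 0.0363), UTP4 by 0.36 ± 0.09 (adjusted p = 0.0281) and IMP3 by -0.45 ± 0.13 (adjusted p = 0.0475). BYSL (0.35, adjusted p = 0.0501), FBL (0.39, 0.0609), GNL2 (0.36, 0.0692), POLR1A (-0.54, 0.0865) and DDX10 (0.39, 0.0879) came next and did not pass. For the other members the difference was not shown, and for NOP16 it was -0.02 ± 0.14.

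None of these 5 calls held in every fit that left out a library: UBTF held in 12 of 14, TAF1D in 9, NOB1 and UTP4 in 5 and IMP3 in 1. Without the KMT2D-KO library of low KMT2D transcript, 9 members were higher and 6 lower. Calls among all genes rose as well in that fit, to 2137 higher and 2093 lower of 18767. Without any other library 0 to 5 members were higher and 0 to 2 lower. With the close pairs summed none was called (lowest adjusted p 0.0891, for UBTF), where 66 and 192 of 21043 genes were. In that fit 10 members were at an unadjusted p under 0.05 in edgeR, a count not made over all genes. With RLE scaling 6 were higher and 1 lower (1158 and 1127 of 18678 genes). With library-size scaling none was higher and 9 were lower (264 and 2402 of 18678 genes).

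Glucose deprivation itself could be compared in experiment 1, where the same 3 lines were counted in the same way with and without glucose. No member was called in edgeR with line as a block, where 0.479% and 0.622% of 16066 genes were higher and lower. At an unadjusted p under 0.05 in edgeR were 12 of the 53 members and 3111 of the 16066 genes. In DESeq2 2 members were higher. The median log2 ratio of the members was 0.12 in KMT2D-WT, 0.11 in KO1 and 0.10 in KO2. Without either KMT2D-WT library 2 were lower, without either KO1 library 2 were higher, and without either KO2 library none was called. TAF1D had the lowest p of the members (0.58 ± 0.16, adjusted p = 0.104), with log2 ratios of 0.34 in KMT2D-WT, 0.51 in KO1 and 0.96 in KO2. UBTF was at -0.05 in KMT2D-WT, -1.02 in KO1 and -0.70 in KO2. UTP20 was at 0.03, -1.14 and -0.59, and POLR1A at 0.08, -0.83 and -0.43. These 3 genes were thus near 0 in KMT2D-WT and below it in both KMT2D-KO lines. They were not alone in this, since POLR1B was at 0.16, -0.40 and -0.18 and WDR75 at 0.15, -0.44 and -0.38. Of the 53 members, 10 were below 0 in KMT2D-WT, 21 in KO1 and 22 in KO2. There was 1 library per line and condition and therefore no replicate check within a line. The KO1 ratios rest on the library that stood apart in KMT2D transcript (19.9 CPM). That library also had the fewest genes with a count (22545), and its part in these ratios was not tested. In experiment 2, 34 members were higher and 2 lower without glucose, where 26% and 23.8% of 18843 genes were called, but there the conditions also differed in whether both mates were counted, which cannot be told apart from glucose.

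Both lines contributed to the difference from KMT2D-WT with glucose. In 1 fit of 7 libraries with experiment as covariate, 30 members were higher and 3 lower in KO1, where 17% and 16.5% of all genes were called. In KO2, 33 were higher and 4 lower (18.8% and 18% of all genes). The lines share their KMT2D-WT libraries, so these counts are not independent. NOP16 was at 1.26 ± 0.07 in KO1 and 1.59 ± 0.07 in KO2, and PES1 at -0.61 ± 0.07 in both lines. BOP1 was at 0.63 in KO1 and 0.75 in KO2, a difference between the lines of -0.12 ± 0.08 that did not pass the test (adjusted p = 0.386).

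Compared directly, 6 members were higher and 9 lower in KO1 than in KO2 (7.89% and 7.37% of all genes). LTV1 was 36.5 and 26.5 CPM in KO1 and 23.1 and 18.1 CPM in KO2, with KMT2D-WT at 29.7, 24.8 and 28.0 CPM. It was thus higher in KO1 than in KO2 within each experiment (0.60 ± 0.12, adjusted p = 0.00234). POLR1B was 91.9 and 101 CPM in KO1 and 63.4 and 73.7 CPM in KO2, against 72.8, 91.6 and 90.0 CPM in KMT2D-WT (0.50 ± 0.09, adjusted p = 0.00100). Its effect was positive in KO1 (0.24) and negative in KO2 (-0.26), both called, which left the joint estimate at 0.01. DKC1 was higher in KO1 (0.31 ± 0.08), and it was above KMT2D-WT in both lines (0.97 and 0.66). The helicase DDX18 (0.46 ± 0.08), WDR43 (0.34 ± 0.08) and IMP4 (0.26 ± 0.08) were also higher in KO1.

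On the KO2 side, the processome factor NOP14 was 83.2 and 76.9 CPM in KO1 and 115 and 106 CPM in KO2, with KMT2D-WT at 84.5, 72.7 and 77.4 CPM. KO2 stood above the other lines (KO1 minus KO2 -0.47 ± 0.08, adjusted p = 0.00113), and this was the only one of the 15 calls that held in all 7 fits that left out a library. UTP20 was 83.9 and 119 CPM in KO1 and 113 and 162 CPM in KO2, against 117, 185 and 164 CPM in KMT2D-WT (-0.43 ± 0.09, adjusted p = 0.00259). Its decrease was thus in KO1 with glucose (-0.52) and not called in KO2 (-0.08). NPM3 (-0.41), NIP7 (-0.34), NOP16 (-0.33), NOP56 (-0.30), NOB1 (-0.30), POLR1A (-0.28) and FBL (-0.26) were also lower in KO1 than in KO2. With library-size scaling 6 members were higher and 5 lower in KO1. Leaving out a KMT2D-KO library of experiment 1 left 3 higher with 3 lower (without KO1) or 1 lower (without KO2), and of experiment 2, 4 higher with 1 lower (without KO1) or 0 higher with 2 lower (without KO2).

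**Figure D5:**
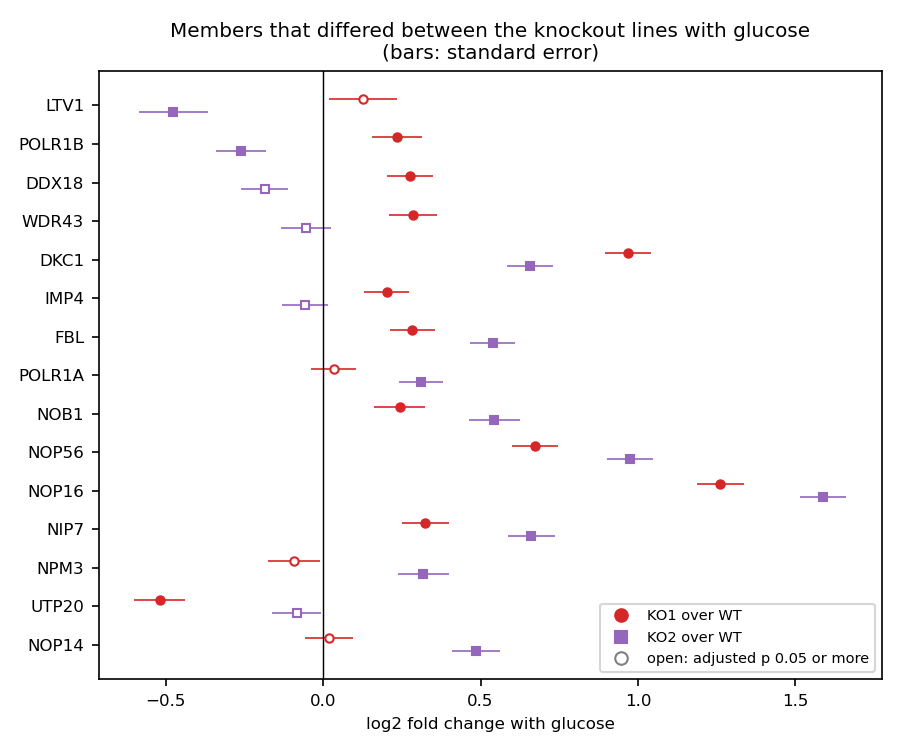
Log2 fold change over KMT2D-WT with glucose (horizontal axis) in KO1 (red circles) and KO2 (purple squares) for the 15 members that differed between the lines, with standard errors, and open symbols where the adjusted p was 0.05 or more. NOP16, NOP56, DKC1, NIP7, NOB1 and FBL lie right of 0 in both lines, while POLR1B lies at 0.24 in KO1 and -0.26 in KO2.

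Levels between members were compared per kilobase of exonic length. NOP10 (228 CPM per kb, mean of the 14 libraries), NCL (200) and NPM1 (143) were highest, and DDX10 (4.75), PPAN (4.55) and NOP2 (0.848) lowest. NOP2, a large subunit RNA methyltransferase, shares 54.4% of its exonic bases with an overlapping gene and PPAN 49.2%, and reads on shared bases were not assigned to either gene. All 5 genes of RNA polymerase I transcription stood at rank 26 or lower of 53, and chaperones and snoRNP proteins filled ranks 1 to 9. Levels also differed between the experiments for many members, as for NOP2 with 7.16 to 7.47 CPM in experiment 1 and 1.36 to 1.99 CPM in experiment 2 with glucose. The experiments differed in read counting in that condition. Without glucose, where all libraries were counted in the same way, NOP2 was 4.83 to 6.34 CPM in experiment 1 and 2.28 to 2.97 CPM in experiment 2.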

How the data were processed

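RNA-seq libraries of SCC23 cells were grouped by their labels into KMT2D-WT (n = 3) and KMT2D-KO (n = 4) with glucose, and the same without it. Per the labels and the paper's methods, the authors mapped reads to GRCh38 with HISAT2. The deposited values are raw counts per gene name, made by the authors with featureCounts 2.0.3 on Ensembl 102, without strand and on primary alignments. Reads on overlapping genes were not assigned. Both mates were counted in 4 libraries. The other assays of the study were not analysed here.

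Tests used edgeR (version 4.0.16, R 4.3.3) on the counts, with filterByExpr (minimum count 10), TMM, quasi-likelihood fit and test, two-sided, and Benjamini-Hochberg adjustment over all genes tested, with calls at 0.05. Experiment was the covariate for genotype and line, experiment within glucose condition for the difference between conditions, and line for glucose deprivation. The study's methods name DESeq2 and no covariate, and DESeq2 1.42.0 was an alternative with and without it. Standard errors came from the log2 fold change and the F statistic. CPM used 1 TMM normalization of all 14 libraries. Counting error is only part of the spread, so replicates set the precision. Nothing in the labels says that replicates were separate cultures, so p-values measure the spread between these libraries. The code was tested on simulated data.

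Members and lists were chosen with earlier results of these data known. Named are the 2 called members of each role with the largest change per comparison, called members against the main direction (up to 6), for the difference between conditions the 10 with the lowest p, and the 3 highest and 3 lowest levels per length. Other members are named with their values only. Alternatives were other scalings, no filter, no covariate, each experiment, line or library, all libraries in 1 fit, halved counts of both-mate libraries, and summed close pairs (chosen after seeing the data).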

Additional observations from a re-analysis of the deposited data

Results flagged for a closer look

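Of the 53 members, 5 passed a test of the difference in KMT2D-KO effect between glucose conditions. With 3 higher and 2 lower, these 5 were near the shares called among all genes, 4.73% and 6.54%. They were TAF1D (0.70 on the log2 scale, without minus with glucose), NOB1 (0.50), UTP4 (0.36), IMP3 (-0.45) and UBTF (-0.67). None of them passed with the close pairs of experiment 2 summed, where the lowest adjusted p was 0.0891 (UBTF). The mix of knockout lines also differed between the conditions, which cannot be told apart from glucose here.

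With glucose, 15 members differed between the knockout lines, by a test of KO1 against KO2 that called 7.89% of all genes higher and 7.37% lower. Higher in KO1 were LTV1 (0.60), POLR1B (0.50), DDX18 (0.46), WDR43 (0.34), DKC1 (0.31) and IMP4 (0.26). Lower in KO1 were NOP14 (-0.47), UTP20 (-0.43), NPM3 (-0.41), NIP7 (-0.34), NOP16 (-0.33), NOP56 (-0.30), NOB1 (-0.30), POLR1A (-0.28) and FBL (-0.26).

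Among the levels of named genes, MYC and the member sum in the 2 KMT2D-KO groups of 4 libraries (68 sets of values), 1 library stood far from the other 3. DKC1 was 517 CPM in KO1 of experiment 1 without glucose, against 372, 374 and 382 CPM. That library was the only one of its group near KO1 (mean log2 distance 0.51), and the others lay near KO2 (0.46 to 0.58). With glucose DKC1 was higher in KO1 than in KO2 (0.31, adjusted p = 0.0142 in edgeR). The part of line in this value was not tested. Chance alone would mark about 1 in 20 sets of 4 separate values. This set held a close pair of libraries, so that rate does not apply to it. The groups of 3 were not examined.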

How the results depend on the processing

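Over KMT2D and the members named by the rule for each comparison, 967 values were computed under an alternative and 5 changed sign, all of them KMT2D with glucose (main value -0.02): 0.041 in experiment 2 only, 0.37 with line KO2 only, and up to 0.18 when 1 library was left out (range -0.33 to 0.18, positive as 0.038 without WT replicate 1 and 0.11 without KO replicate 1). Outside that rule, 7 members changed sign without glucose under library-size scaling (RRN3, which had been called, and HEATR1, IMP4, RRS1, NAT10, NOP2 and RRP1). Another 208 of the 967 values, of called genes, missed the threshold under an alternative and 24 newly passed it. The cause of these and of the shifts below was not tested, except that fits with fewer libraries or without covariate have fewer samples or a larger residual spread by construction.

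Without the replicate block (experiment, or line for glucose deprivation), members higher and lower were 2 and 0 with glucose, 12 and 2 without glucose, 0 and 0 for the difference between conditions and 0 and 0 for KO1 against KO2, and glucose deprivation stayed at 0 and 0. DESeq2 without covariate gave 8 and 0 with glucose and 18 and 2 without. With glucose, experiment 1 alone gave 1 and 0, experiment 2 alone 7 and 1, and line KO2 alone 4 lower. Without glucose, experiment 1 alone gave 0 and 0 (5 at an unadjusted p under 0.05 in edgeR, a count not made over all genes) and summed pairs 13 and 1. For the difference between conditions the counts were 6 and 1 with RLE, 0 and 9 with library-size scaling (median of members -0.17, of all genes -0.23), 9 higher with DESeq2, and 0 and 0 with summed pairs. Among all genes, library-size scaling called 264 higher and 2402 lower of 18678, and DESeq2 1769 higher of 20113. For glucose deprivation they were 2 and 1 without a filter, 2 higher with DESeq2, 34 and 2 in experiment 2 only, and the median was -0.068 with library-size scaling (all genes -0.16). For KO1 against KO2, library-size scaling gave 5 lower. Leaving out 1 library gave 9 to 25 higher and 1 to 2 lower with glucose, 27 to 38 and 4 to 11 without, 0 to 9 and 0 to 6 for the difference, 0 to 2 and 0 to 2 for glucose deprivation, and 0 to 6 and 1 to 11 for KO1 against KO2. The difference gained most (9 and 6) without the KMT2D-KO library of low KMT2D transcript, where 2137 and 2093 of 18767 genes were called.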
